A study of Mus musculus with 16 samples.

Results

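Spleen RNA from EMP3 mutant mice was compared with pooled spleen RNA from wild-type mice on 2-colour cDNA microarrays, slides on which both RNAs are hybridised together and each probe gives a ratio of the mutant signal to the pool signal. All 8 arrays labelled as EMP3 mutant spleen were used, out of 16 in the series, and the other 8 carried thymus. The mutant group was 4 male mice aged 17 weeks. The reference was a single pool from male wild-type mice of the same age, made of 4 mice according to the channel labels and the design text and of 6 animals according to the labelling protocol. Each mutant was hybridised on 2 arrays with the dyes Cy3 and Cy5 exchanged. Both arrays of a mouse were averaged into 1 replicate, which gave n = 4. The labels give neither the allele nor the strain, nor whether the mutation removes the Emp3 transcript. The pool was on every array and counts as 1 control sample, so the tests below leave out the spread among wild-type mice.

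EMP3, epithelial membrane protein 3, belongs with EMP1, EMP2 and PMP22 to a family of small glycoproteins that cross the membrane several times and share their general fold with the claudins of tight junctions. The spleen filters blood. Its white pulp holds B and T lymphocytes, and its red pulp holds macrophages that take up old red cells and recycle their heme iron. In mice the red pulp also makes red cells and granulocytes.

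The values were log ratios, read as log2 of mutant over pool. The labels state neither the scale nor the direction. Mutant over pool is the likely direction, going by how the design text words the comparison, and under the opposite reading each higher probe would be a lower one. Of 20794 probes, 20127 had a value from both arrays in at least 3 mice and were tested. Of these, 12397 had a gene symbol, for 8836 genes. Probes sharing a symbol did not correlate (Spearman's rho of 0.01, given below), so a gene name here labels a probe. An array gave between 20046 and 20533 usable values, with medians from -0.002 to 0.048. The 2 arrays of a mouse correlated across probes at 0.05, 0.32, 0.08 and 0.42 in mice 1 to 4. Arrays of different mice with the mutant in the same dye correlated at a median of 0.47, and with the dyes exchanged at a median of 0.22. Mouse means correlated at 0.41 to 0.70, and all of them share the pool. Mouse 1 was the farthest from the median of the mice at 35.9% of the probes. Ratios give no levels, so the labelled tissue could not be checked against the level of spleen markers. The series title names thymus and brain, whereas the labels of these arrays say spleen, and the labels were followed. In bulk RNA, fewer cells of a type and less RNA per cell cannot be told apart.

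The targeted gene was represented by 2 probes. Emp3 probe 4348 had log2 ratios of 0.03, 0.48, 0.36 and -0.05 in mice 1 to 4, and probe 11822 had -0.08, 0.30, 0.79 and 0.07. On both probes mice 2 and 3 were above the other mice, and the values lay on both sides of 0. The means were 0.20 ± 0.25 (SD, n = 4; limma adjusted p = 0.204) and 0.27 ± 0.38 (SD, n = 4; limma adjusted p = 0.214), so neither probe was called. With the mutant in Cy5, probe 4348 read 1.02 in mouse 2 and 0.87 in mouse 3, and with the mutant in Cy3 the same mice read -0.06 and -0.16. Neither the effect of the mutation on the transcript nor the place of the probes on it is known here, and so the Emp3 ratios are no check of the genotype labels. Of its relatives, Emp2 had 2 probes at 0.04 ± 0.19 and -0.16 ± 0.05 (SD, n = 4), and Pmp22, the peripheral myelin protein, had a probe at -0.16 ± 0.27 (SD, n = 4). No probe of the 8 in the EMP/PMP22 list was called, with means from -0.21 to 0.27. Emp1 had no probe.

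Over all probes, 5086 of 20127 (25.3%) were called, meaning that the mean log ratio differed from 0 at a Benjamini-Hochberg adjusted p under 0.05 in limma. Of these, 2691 (13.4%) were higher and 2395 (11.9%) were lower in the mutants. The probes with a gene symbol gave the same picture: 25.8% were called, 13% higher and 12.7% lower, while 1893 of 7730 probes without a symbol were called. Most changes were small. The median size was 0.38 on the log2 scale for higher probes (1.30-fold) and 0.48 for lower probes (1.40-fold), and 27 higher and 70 lower probes passed 2-fold. The larger changes were more often lower: 333 higher and 836 lower probes passed 1.5-fold. The mice had 1 sign in 5073 of the called probes (99.7%), against 48.2% of all tested probes. At a called probe named below, a shared sign of the mice therefore adds little to the call. All 8 single arrays had 1 sign in 3286 of the called probes (64.6%), against 18.6% of all tested probes. The smallest adjusted p that any probe reached was 0.00401.

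The number of called probes rested on several choices. If the sign of the arrays with the mutant in Cy3 had still to be turned, 1 probe was called, and 4217 had an unadjusted p under 0.05. With a variance for the wild-type pool added to the error, assumed equal to that of the mutants, 1689 probes were called, 584 higher and 1105 lower. Without mouse 2 the count was 2351 (942 higher, 1409 lower) and without mouse 4 it was 2366 (935 higher, 1431 lower), against 4867 without mouse 1 and 3859 without mouse 3. No called probe changed sign when a mouse was left out, which could not happen at the 5073 called probes whose mice shared 1 sign. The counts of the gene lists below moved in the same way, most often without mouse 2 or mouse 4.

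**Figure D1:**
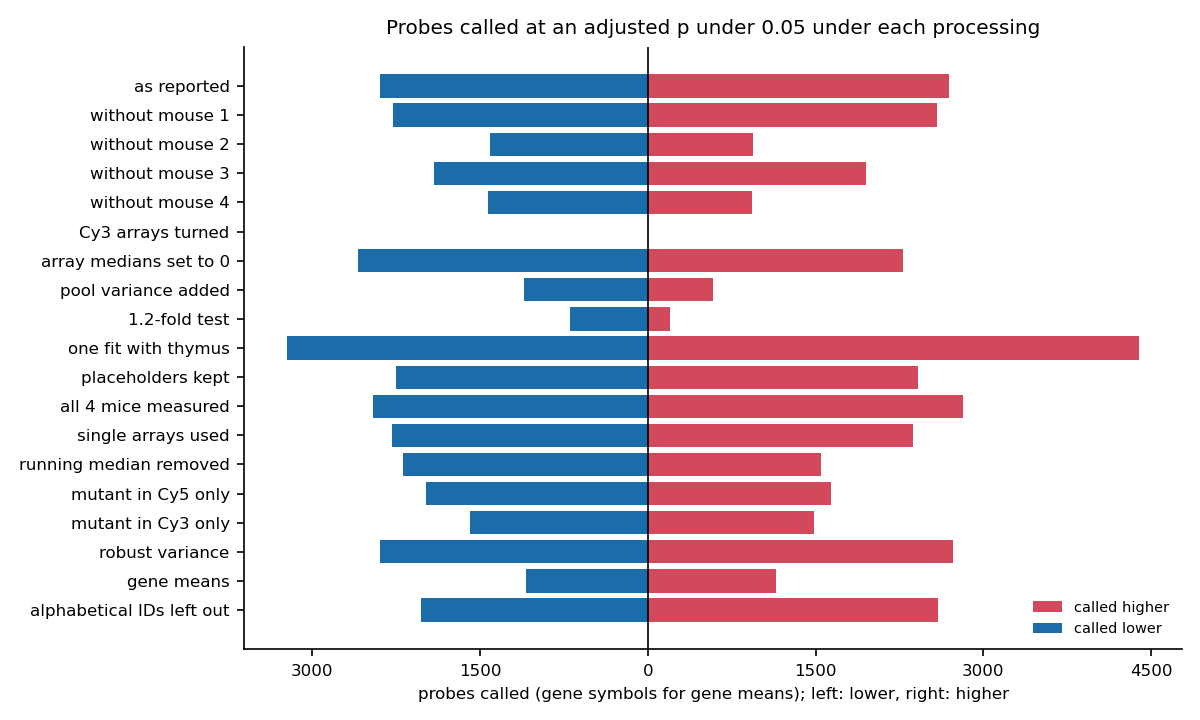
Horizontal bars give the number of probes called higher (right) and lower (left) in EMP3 mutant spleen at a limma adjusted p under 0.05, for the reported processing at the top and for each alternative below it. The reported bar reaches 2691 higher and 2395 lower probes, the bar with the Cy3 arrays turned is empty to the eye at 1 probe, and the bar with the pool variance added ends at 584 and 1105.

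The highest ratio among probes with a symbol, measured in all 4 mice and with 1 sign on all 8 arrays, belonged to Selenop, which encodes the plasma protein that carries selenium. Its probe 5893 read 1.49, 1.52, 1.22 and 1.30 in mice 1 to 4. The mice lay close together, at a mean of 1.38 ± 0.14 (SD, n = 4), or 2.60-fold (limma adjusted p = 0.00401). Arpc5l, a subunit of the Arp2/3 complex that starts actin branches, read 1.26, 1.45, 1.16 and 1.44, again a narrow range about a mean of 1.33 ± 0.14 (SD, n = 4; limma adjusted p = 0.00401). Gsto1, an omega-class glutathione transferase, read 0.99, 0.88, 1.45 and 1.91. Mouse 4 was the highest, and the mean was 1.31 ± 0.47 (SD, n = 4; limma adjusted p = 0.00567). Faf2, a factor that helps to extract misfolded proteins from the endoplasmic reticulum, read 1.27, 1.25, 0.86 and 1.19. Ifnar2, part of the receptor for type I interferons, read 1.37, 1.04, 0.90 and 0.95. A shared sign in every mouse and on every array was a condition for being listed here.

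The other high probes fell into a tight and a wide set. Tnnc2, the troponin C of fast skeletal muscle, had a mean of 1.01 ± 0.20 (SD, n = 4), and Mrpl49, a protein of the large mitochondrial ribosomal subunit, one of 0.92 ± 0.13 (SD, n = 4). Spns1, a lysosomal lipid transporter, had a mean of 0.94 ± 0.25 and the clone 1700029I15Rik one of 0.92 ± 0.22 (SD, n = 4). In the wide set mouse 3 stood above the rest. It read 1.96 at Mmachc, an enzyme of vitamin B12 processing, where the other mice read 0.46, 1.21 and 0.53. It read 1.71 at Nagk, the kinase of N-acetylglucosamine, against 0.69 to 0.91, and 2.09 at Vopp1 against 0.54 to 0.69. The 2 arrays of mouse 3 differed there. With the mutant in Cy5 and in Cy3 they read 2.79 and 1.13 at Mmachc, and 0.057 and 3.36 at Nagk. At Vopp1 they read 3.81 and 0.37, so at Nagk and Vopp1 the lead of mouse 3 came from 1 array. Mmachc was not called without mouse 2 (adjusted p = 0.103) or mouse 4 (adjusted p = 0.0536). Vopp1 was not called without mouse 1 (adjusted p = 0.0669), mouse 2 (adjusted p = 0.0777) or mouse 4 (adjusted p = 0.0832). The other 10 of these 12 probes kept their call whichever mouse was left out.

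**Figure D2:**
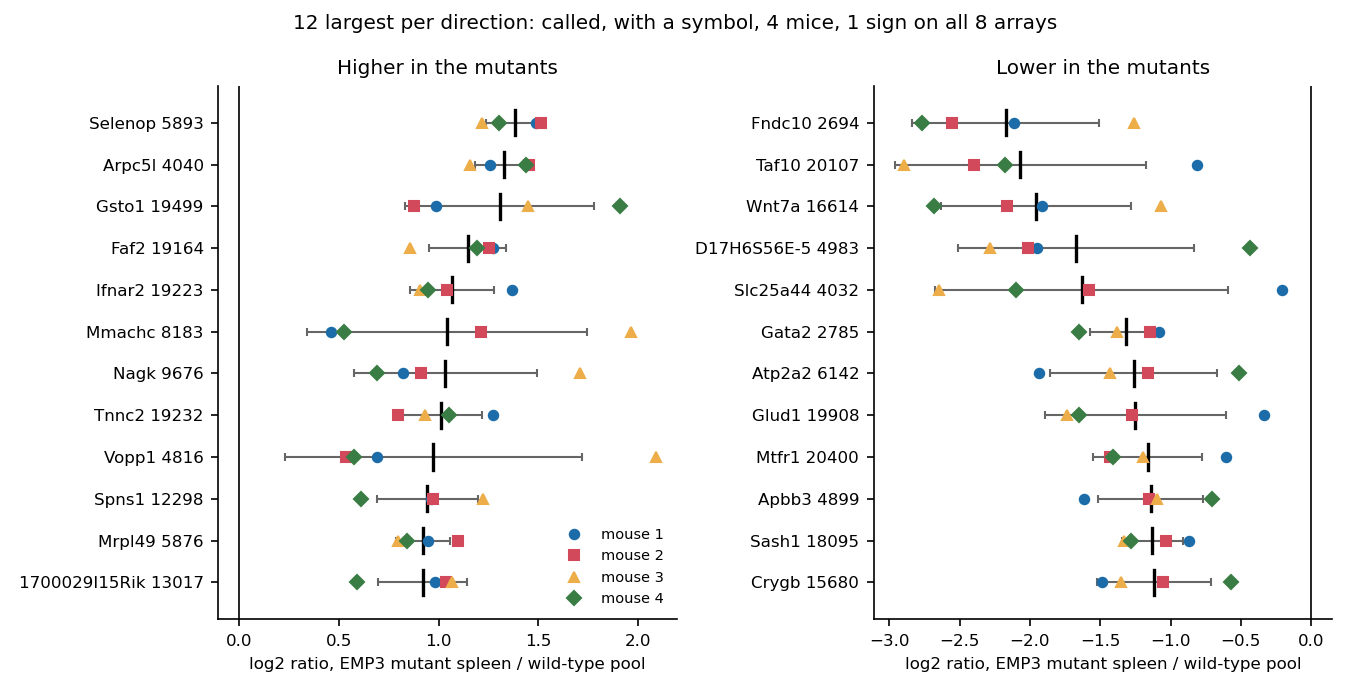
Each row is a probe, named by gene symbol and probe ID, and the points are the log2 ratios of mutant spleen over the wild-type pool in mice 1 to 4, with a black bar for the mean and a grey bar for ± SD. Only called probes with a symbol, measured in all 4 mice and with 1 sign on all 8 arrays, were drawn. The left panel holds the 12 of them with the highest means, from Selenop at 1.38 down to 0.92, and the right panel the 12 with the lowest, from Fndc10 at -2.17 up to Crygb at -1.12, where the mice spread more widely.

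The lowest ratios were larger in size than the highest and differed more between mice. Fndc10, which encodes a protein with a fibronectin type III domain, read -2.11, -2.55, -1.26 and -2.77 in mice 1 to 4. Its mean of -2.17 ± 0.67 (SD, n = 4) is a 4.51-fold lower signal (limma adjusted p = 0.00412), and mouse 3 was the least changed. Wnt7a, a secreted Wnt ligand, had the same order of mice, at -1.92, -2.16, -1.06 and -2.68 (mean -1.96 ± 0.68, SD, n = 4; limma adjusted p = 0.00483). The 2 lowest probes without a symbol were similar. Probe 4889 read -1.88, -2.37, -1.03 and -2.78, and probe 4961 read -2.0035, -2.36, -1.03 and -2.33. Mouse 3 was the least changed at these 4 probes.

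At other low probes mouse 1 was the least changed. Taf10, a component of the TFIID complex at promoters, read -0.81, -2.40, -2.90 and -2.17, with a mean of -2.07 ± 0.89 (SD, n = 4; limma adjusted p = 0.00789). Slc25a44, a mitochondrial carrier of branched-chain amino acids, read -0.21, -1.58, -2.65 and -2.10, and Glud1, mitochondrial glutamate dehydrogenase, read -0.33, -1.28, -1.74 and -1.65. The mice differed widely at Slc25a44, with a mean of -1.63 ± 1.04 (SD, n = 4). Slc25a44 was not called without mouse 2 (adjusted p = 0.0795), mouse 3 (adjusted p = 0.0571) or mouse 4 (adjusted p = 0.0926), and Glud1 was not called without mouse 2 (adjusted p = 0.0547) or mouse 4 (adjusted p = 0.0583).

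Mouse 4 was the least changed at a further set of probes. D17H6S56E-5 read -1.95, -2.02, -2.28 and -0.44, Atp2a2, the calcium pump of the sarcoplasmic and endoplasmic reticulum, read -1.94, -1.16, -1.43 and -0.51, and Crygb, a crystallin of the eye lens, read -1.49, -1.05, -1.36 and -0.57. Apbb3, an adaptor that binds the amyloid precursor protein, followed with -1.62 in mouse 1 and -0.71 in mouse 4. D17H6S56E-5 was not called without mouse 2 (adjusted p = 0.0527). The mice lay closer together at Gata2, a transcription factor of blood stem cells and mast cells, which read -1.08, -1.15, -1.38 and -1.65 (mean -1.32 ± 0.26, SD, n = 4; limma adjusted p = 0.00401). Sash1, a scaffold protein, was similar at -1.13 ± 0.22 (SD, n = 4). The remaining probe of the 12, Mtfr1, named for a mitochondrial fission regulator, had a mean of -1.16 ± 0.39 (SD, n = 4). Among probes without a symbol the highest were 7079, at 1.42, 1.57, 1.73 and 1.70, and 19269, at 1.37, 1.19, 0.96 and 1.76.

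The calls were not spread evenly over the order of the probe IDs. In 42 blocks of 500 IDs, the share called higher ran from 3.42% to 31.2% and the share called lower from 5.08% to 67.3%. Block medians ran from -0.57 to 0.18, and neighbouring IDs correlated at a Spearman's rho of 0.17 over 19672 pairs.

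Probes whose symbols follow the alphabet lay in the runs 2 to 32 and 20247 to 20794, and most of them read low. In these runs 90.6% of the steps from a symbol to the next were in alphabetical order, against 50.5% elsewhere. They held 560 tested probes with a median of -0.47, and the array medians there lay between -0.33 and -0.65 on all 8 arrays. Of their 489 probes with a symbol, 58.5% were called lower and 6.75% higher, while over all other IDs the shares were 10.8% lower and 13.3% higher. These runs held 2.78% of the tested probes and 13.6% of the lower calls. For 155 genes a probe lay in the runs and another outside. Their median was -0.52 inside and 0.03 outside, and 121 of the 155 genes read lower inside than outside. No label says what sets these probes apart, and its part in the calls was not tested. Of the 12 low probes described above, which were called with 1 sign on every array, Mtfr1 lies in a run and the other 11 do not. Of all 70 lower probes past 2-fold, 16 lie in the runs. The gene lists below are therefore given outside the runs, where their shares are to be read against 13.3% and 10.8% and their medians against 0.05. The runs were noticed in these values.

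**Figure D3:**
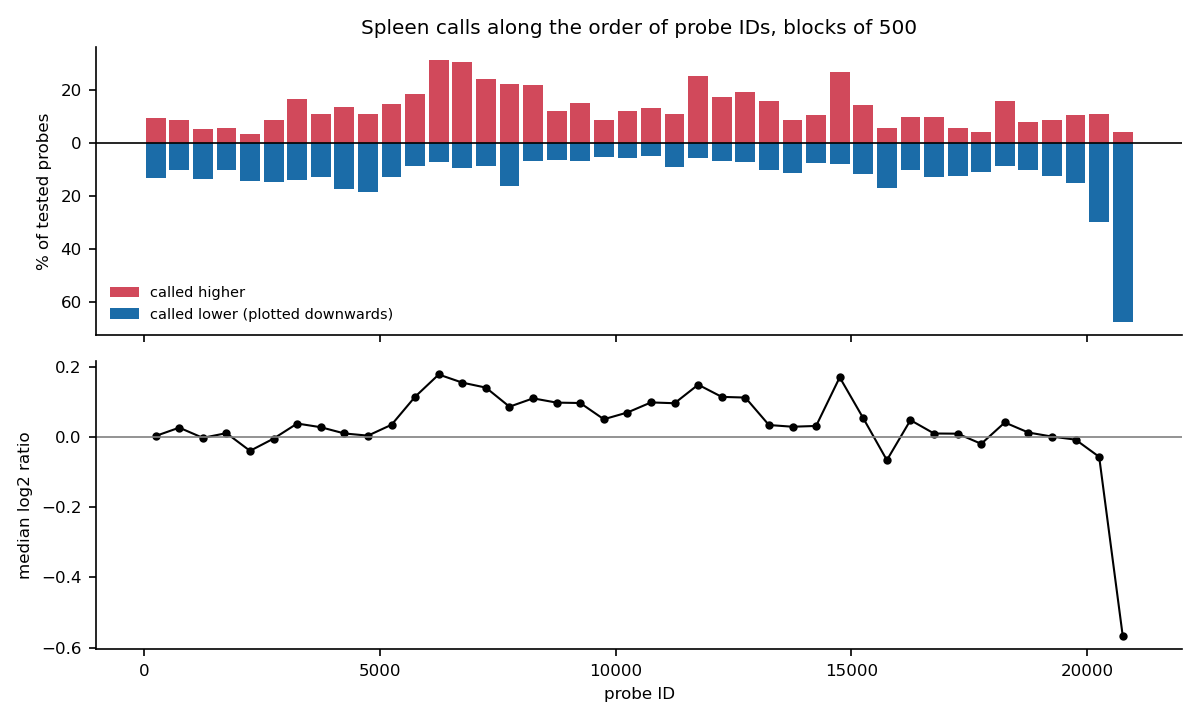
The upper panel gives, for each block of 500 probe IDs, the percentage of tested probes called higher (upwards) and lower (downwards) in EMP3 mutant spleen, and the lower panel gives the block's median log2 ratio. The last block has 67.3% of its probes called lower and a median of -0.57, while the highest share called higher, 31.2%, lies in the block that opens at ID 6001.

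The lists group genes by textbook function, cell type or family. Each count below is a description with no test of the list, since the members were chosen with results of these data known. Counts with a mouse left out cover all probes of a list, also those inside the runs. They are to be read beside the higher calls over all tested probes, 2691 of 20127. These fell to 942 of 19498 without mouse 2 and to 935 of 19464 without mouse 4. Lists with at least 15 probes outside the runs numbered 70. Their shares called higher ran from 4% to 38.2%, their shares called lower from 0% to 26.3%, and their medians from -0.07 to 0.19.

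Genes of heme synthesis and iron handling had the highest share of higher probes among the 70 lists with at least 15 probes outside the runs. Outside the runs 13 of 34 probes (38.2%) were higher and 1 was lower, with a median of 0.19. Over all 38 probes of the list, the number of higher probes was 13 without mouse 1, 8 without mouse 2, 8 without mouse 3 and 6 without mouse 4. Uros, an enzyme of the porphyrin pathway, read 0.54, 0.58, 0.59 and 0.74 in mice 1 to 4 (mean 0.61 ± 0.09, SD, n = 4; limma adjusted p = 0.00401). Blvrb, a biliverdin reductase of heme breakdown, read 0.38, 0.63, 0.51 and 0.61, with a mean of 0.54 ± 0.12 (SD, n = 4; limma adjusted p = 0.00521). Every mouse was above 0 on both probes. Inside the runs, 3 of 4 probes were lower, among them Hmox2, a heme oxygenase, at -0.50 ± 0.08 and Ireb2, an iron-sensing regulator of mRNAs, at -0.60 ± 0.13 (SD, n = 4). With a running median over neighbouring IDs removed, Hmox2 read 0.10 and Ireb2 -0.05, and neither was called.

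In the erythroid list of 37 probes, 7 of 36 probes outside the runs were higher (19.4%) and 5 were lower (13.9%). Uros is also in this list. Hba-x, an embryonic alpha-like globin, read 1.09, 0.90, 0.72 and 0.93 (mean 0.91 ± 0.15, SD, n = 4; limma adjusted p = 0.00401). Hba-a1, the adult alpha globin, read -0.50, -0.50, -0.56 and -0.51 on probe 15435, with little spread between mice. That was 1 of 5 probes annotated to Hba-a1, and the others were not called, with means from -0.20 to 0.10. Sptb, the beta spectrin of the red-cell skeleton, read -0.64 ± 0.10 (SD, n = 4) on probe 15496. Its probe 5295, chosen here after its values were seen, was called higher at 0.38 ± 0.15 (SD, n = 4). Of the GATA factors and their partners, Gata2 was lower as given above. Lmo2, a bridging partner of GATA factors whose probe lies in a run, was lower at -0.98 ± 0.29 (SD, n = 4). Gata3, a T-cell factor, was called at 0.32 ± 0.04 and Zfpm1, the GATA1 cofactor FOG1, at 0.49 ± 0.36 (SD, n = 4). Without mouse 2 or without mouse 4 neither was called (Gata3 adjusted p = 0.0662 and 0.0660, Zfpm1 adjusted p = 0.145 and 0.150).

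DNA repair genes were also more often higher. Outside the runs 18 of 61 probes (29.5%) were higher and 6 (9.84%) were lower, with a median of 0.14. Over all 65 probes of the list 18 were higher, and 15, 5, 8 and 6 without mice 1 to 4. The higher calls over all tested probes fell as well, from 2691 to 2585, 942, 1949 and 935. Xpc, the damage sensor of nucleotide excision repair, read 0.57, 0.64, 0.47 and 0.75, and Rad9b, a subunit related to the checkpoint clamp, read 0.58, 0.71, 0.62 and 0.52. Both had a mean of 0.61, and every mouse was above 0 on both. The 4 probes inside the runs were all lower. They included Rad17, the loader of the checkpoint clamp, at -0.87 ± 0.15 and Nbn, a subunit of the MRN break-sensing complex, at -0.75 ± 0.15 (SD, n = 4). Core and variant histones had 5 of 23 probes higher and 1 lower. The lower one was H1f7, a testis linker histone, at -0.56 ± 0.11 (SD, n = 4). H2ax, the variant phosphorylated at DNA breaks, was called at 0.35 ± 0.12 and H3c1 at 0.28 ± 0.02 (SD, n = 4). Neither was called without mouse 2 (adjusted p = 0.0570 and 0.0692), mouse 3 (0.0539 and 0.0515) or mouse 4 (0.0817 and 0.0797). The small SD of H3c1 is that of mouse averages. In mouse 1 its arrays read 0.85 with the mutant in Cy5 and -0.30 with the mutant in Cy3.

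Selenoproteins and glutathione enzymes were led by Selenop and Gsto1. Outside the runs 16 of 83 probes (19.3%) were higher and 8 (9.64%) lower, with a median of 0.05. Over all 84 probes the list had 17 higher, and between 7 (without mouse 4) and 14 (without mouse 1) with each mouse left out. The lower members included Sod2, the mitochondrial superoxide dismutase, which read -0.61, -0.50, -0.79 and -0.69, and Selenov, which read -0.51, -0.47, -0.67 and -0.60. All mice lay below 0 on both probes, and the means were -0.65 ± 0.12 and -0.56 ± 0.09 (SD, n = 4; limma adjusted p = 0.00412 and 0.00422).

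**Figure D4:**
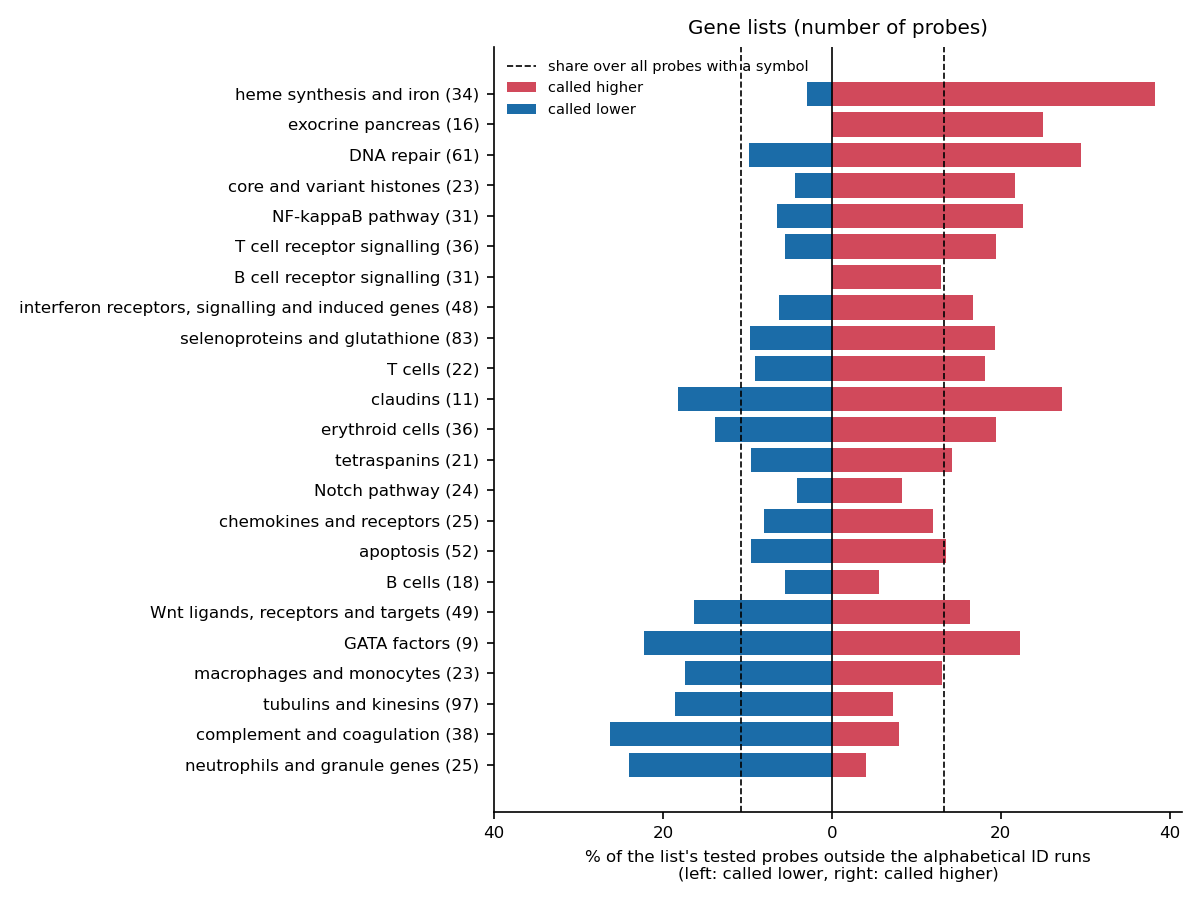
For the lists described here with at least 8 probes outside the alphabetical ID runs, bars give the percentage of probes called higher (right) and lower (left) in EMP3 mutant spleen, with the number of probes in brackets, and dashed lines mark the shares over all probes with a symbol outside the runs, 13.3% and 10.8%. The heme and iron list reaches 38.2% higher at the top, and the neutrophil and complement lists reach past 20% lower at the bottom.

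Of 18 probes for B-cell markers 1 was higher and 1 lower. Cxcr5, the chemokine receptor that leads B cells into follicles, read -1.10, -0.72, -0.39 and -0.66 (mean -0.72 ± 0.29, SD, n = 4; limma adjusted p = 0.00942). Tnfrsf13c, the receptor for the B-cell survival factor BAFF, was higher at 0.75 ± 0.23 (SD, n = 3) on probe 12315, measured in 3 mice. When the single array of the remaining mouse was used as well, it read 0.18 (adjusted p = 0.782). None of the 6 plasma-cell probes was called. B-cell receptor signalling had 4 of 31 probes higher and 0 lower. Among them Vav1, an exchange factor for Rac, read 0.50, 0.37, 0.39 and 0.48, and the inhibitory receptor Fcgr2b had a mean of 0.61 ± 0.16 (SD, n = 4). Fcgr2b depended on the dye, with a mean of 1.05 with the mutant in Cy5 and 0.17 with the mutant in Cy3. Without mouse 1, 1 probe of that list was lower.

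Among T-cell markers 4 of 22 probes outside the runs were higher and 2 lower. Lat, the adaptor that links the T-cell receptor to its downstream enzymes, read 0.74, 0.74, 0.61 and 0.60, and Cd2, an adhesion receptor, read 0.28, 0.46, 0.42 and 0.48. Plcg1, the phospholipase recruited by Lat, read 0.46, 0.47, 0.47 and 0.46. Its single arrays lay much farther apart than these mouse averages. In mouse 3 Plcg1 read 0.94 with the mutant in Cy5 and -0.01 with the mutant in Cy3. Csk, the kinase that restrains Lck, was lower at -0.94 ± 0.31 (SD, n = 4; limma adjusted p = 0.00543). In the T-cell receptor signalling list as a whole 7 of 36 probes outside the runs were higher and 2 lower. Over all its 40 probes 8 were higher, and 3 without mouse 2 or without mouse 4. The T-cell regulator Bcl11b, next to the opening run, read -0.47 ± 0.05 and Cd28, the costimulatory receptor inside a run, read -0.82 ± 0.20 (SD, n = 4).

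Genes of NK and cytotoxic cells had 10 probes. Nkg7, a granule membrane protein, read 0.90, 0.81, 0.69 and 0.67, and Cst7, the cystatin of cytotoxic granules, read 0.62, 1.03, 0.54 and 0.61. Both were higher in every mouse, with means of 0.77 ± 0.11 and 0.70 ± 0.22 (SD, n = 4; limma adjusted p = 0.00401 and 0.00604). Il2rb, the beta chain of the IL-2 and IL-15 receptors, was lower at -0.66 ± 0.20, and Fasl, the ligand of Fas, at -0.80 ± 0.16 (SD, n = 4), the latter inside the opening run. Outside the runs 4 of 7 probes were higher and 1 was lower. Over all 10 probes 4 were higher and 2 lower, and without mouse 4 the number higher was 2.

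Neutrophil and granule genes had 1 of 25 probes higher (4%) and 6 lower (24%), with 5 or 6 lower whichever mouse was left out. Mpo, the granule peroxidase, read -0.54, -0.56, -0.62 and -0.61 on probe 4927, and Cebpe, a transcription factor of late granulocyte stages, read -0.80, -0.49, -0.50 and -0.49. The single higher probe was Lcn2, the siderophore-binding lipocalin, at 0.69 ± 0.11 (SD, n = 3). It read 0.46 when the single array of the remaining mouse was used and was then not called (adjusted p = 0.134). The list median was -0.03, and 18 of its probes were not called. Macrophage and monocyte markers had 3 of 23 probes higher and 4 lower outside the runs. Ctsb, a lysosomal protease, read 0.72, 0.59, 0.81 and 0.75, and C1qc, a chain of complement C1q, read 0.61, 0.74, 0.48 and 0.69. Tyrobp, the adaptor DAP12, was lower at -0.52 ± 0.10 (SD, n = 4; limma adjusted p = 0.00534).

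Among the same 70 lists, complement and coagulation genes had the highest share of lower probes, 10 of 38 outside the runs (26.3%) against 3 higher (7.89%), with a median of -0.04. Over all 39 probes of the list, between 6 (without mouse 2) and 9 (without mouse 1) were lower with each mouse left out. Proc, the anticoagulant protein C, read -0.63, -0.59, -0.82 and -0.68, and Mbl2, a mannose-binding lectin, read -0.43, -0.69, -0.64 and -0.77 (means -0.68 ± 0.10 and -0.63 ± 0.15, SD, n = 4; limma adjusted p = 0.00401 and 0.00451). Both are proteins of liver origin in textbook accounts, and in the list of liver markers 1 of 22 probes was higher and 1 lower. Of the higher members, C1qc was given above, and F5, coagulation factor V, read 0.35 ± 0.18 (SD, n = 4). F5 was not called with any of mice 1 to 4 left out (adjusted p = 0.0515, 0.0909, 0.0611 and 0.0669).

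Cytokine signalling was mixed. Interferon receptors, signalling proteins and induced genes had 8 of 48 probes higher (16.7%) and 3 lower (6.25%) outside the runs. Irf5, a transcription factor of interferon responses, read 0.42, 0.43, 0.33 and 0.43, and Ifnar2 was given above. Igtp, an interferon-induced GTPase, was called lower at -0.34 ± 0.07 (SD, n = 4), and it was not called without mouse 2 (adjusted p = 0.0581) or mouse 4 (adjusted p = 0.0647). Irf2, inside the opening run, read -0.89 ± 0.23 (SD, n = 4). Over all 51 probes the number higher was 8, and 3 without mouse 2, 4 without mouse 3 and 3 without mouse 4. In the NF-kappaB list 7 of 31 probes outside the runs were higher and 2 lower. Ikbkb, the kinase that releases NF-kappaB, read 0.41, 0.56, 0.49 and 0.55, and Relb, a subunit of NF-kappaB itself, was lower at -0.48 ± 0.12 (SD, n = 4; limma adjusted p = 0.00754). Tnfaip3, the feedback inhibitor A20, was higher at 0.48 ± 0.13 (SD, n = 4) although it lies in a run, and the adaptor Myd88 in the same stretch was lower at -0.56 ± 0.17 (SD, n = 4) on probe 20357. Another Myd88 probe, 8228, chosen here after its values were seen, read 0.31 ± 0.11 (SD, n = 4; limma adjusted p = 0.0248). Over all 34 probes of that list the number higher was 8, and 3 without mouse 2 and 4 without mouse 4. Chemokines and their receptors had 3 of 25 probes higher and 2 lower outside the runs. Ccl5 was called at 0.25 ± 0.03 and the scavenging receptor Ackr1 at 0.51 ± 0.21 (SD, n = 4), and neither was called without mouse 2 (adjusted p = 0.0928 and 0.0577) or mouse 4 (0.110 and 0.0572). Ccl5 was also not called without mouse 3 (adjusted p = 0.0570). Of the 35 chemokine probes 3 were higher, and 6, 0, 1 and 0 without mice 1 to 4.

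In the Notch and Hox lists most of the lower calls lay in the runs. The Notch list had 13 of 41 probes lower in all, but 1 of 24 lower and 2 higher outside the runs. Hes3, a transcriptional repressor of the Hes family, read -0.71, -0.98, -0.98 and -1.06, and Hey1, a Notch target, read -0.67, -0.70, -0.70 and -0.63 on probe 24, both in the opening run. Outside, Jag2, a Notch ligand, was higher at 0.39 ± 0.06 and Rbpj, the DNA-binding partner of Notch, was called at 0.31 ± 0.11 (SD, n = 4). Rbpj was not called without mouse 2 (adjusted p = 0.0528), mouse 3 (adjusted p = 0.0631) or mouse 4 (adjusted p = 0.0915). Of the 18 Hox probes 8 were lower and 1 higher, and all 9 lay in the runs. The lower ones included Hoxc8 at -0.81 ± 0.10 and Hoxb1 at -0.76 ± 0.15 (SD, n = 4). None of the 7 Hox probes outside was called. Over all Notch probes the lower ones numbered 8 without mouse 2 and 7 without mouse 4.

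The apoptosis list had 18 of 73 probes lower and 8 higher in all, and 5 of 52 lower and 7 higher outside the runs. The lower probes inside included the death receptor Fas at -0.78 ± 0.05 and Bcl2l12 at -0.92 ± 0.14 (SD, n = 4). With a running median along the IDs removed, Fas read -0.11 and was not called. Without mouse 2 or mouse 4 the whole list had 0 higher probes and 10 or 11 lower ones. Outside, Bcl10, an adaptor of NF-kappaB activation, read 0.32 ± 0.07 and Casp2, an initiator caspase, 0.45 ± 0.20 (SD, n = 4), and neither was called without mouse 2 (adjusted p = 0.0717 and 0.0745) or mouse 4 (0.0741 and 0.0639). The Wnt list had 8 of 49 probes higher and 8 lower outside the runs, with Wnt7a at its low end. Inside, the scaffold protein Apc read -0.93 ± 0.13 and Ror1, a Wnt receptor, -0.66 ± 0.04 (SD, n = 4). Over all its 57 probes the number higher was 8, and 6, 0, 2 and 1 without mice 1 to 4.

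Genes of the cytoskeleton, the claudins and the tetraspanins were examined as well. The list of tubulins and kinesins, which also holds dynein chains, had 18 of 97 probes lower (18.6%) and 7 higher (7.22%). None of them lay in the runs. The kinesins named Kif had only 2 of 29 probes lower and 1 higher, so most of the lower calls were not theirs. With each mouse left out, between 11 (without mouse 2) and 18 (without mouse 1) were lower. Tubb4b, a beta tubulin, read -0.77, -0.73, -0.90 and -0.94, and Tuba4a, an alpha tubulin, read -0.66, -0.68, -0.83 and -0.71 (means -0.83 ± 0.10 and -0.72 ± 0.07, SD, n = 4; limma adjusted p = 0.00401 for both). The higher ones numbered 1 without mouse 2 and 2 without mouse 4. Among them Dynll2, a dynein light chain, had a mean of 0.50 ± 0.13 (SD, n = 4). Claudins, which share the fold of EMP3, had 3 of 11 probes higher and 2 lower. Cldn19 read -0.59, -0.86, -0.60 and -0.64, and Cldn3 read -0.50, -0.54, -0.60 and -0.54. Cldn6 was called at 0.35 ± 0.11 and Cldn4 at 0.33 ± 0.16 (SD, n = 4). Neither was called without mouse 4 (adjusted p = 0.0583 and 0.113), and Cldn4 was also not called without mouse 1 (adjusted p = 0.0517) or mouse 3 (adjusted p = 0.0809). Tetraspanins had 3 of 21 probes higher (14.3%) and 2 lower (9.52%) outside the runs, near the shares over all probes there. Cd63, a tetraspanin of lysosomes and exosomes, read -0.70, -0.50, -0.58 and -0.51. Tspan4 read 0.41, 0.51, 0.36 and 0.57.

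Other tissues that can be taken with a spleen were checked through their markers. Of 16 probes for exocrine pancreas 4 were higher and 0 lower, among them Klk1, a glandular kallikrein, at 0.38 ± 0.02 (SD, n = 4), and Ctrl, a chymotrypsin-like protease, at 0.69 ± 0.18 (SD, n = 3). The list medians were 0.23, 0.03, -0.02 and 0.06 in mice 1 to 4, and without mouse 1 there were 2 higher and 3 lower probes. Outside the runs, adipose markers had 3 of 31 probes higher and 1 lower, and striated muscle 7 of 57 higher and 10 lower. Cytosolic ribosomal proteins had 8 of 90 probes higher and 10 lower, and the respiratory chain with ATP synthase had 12 of 91 higher and 10 lower, both near the shares over all probes. Translation factors had 12 of 74 probes higher and 3 lower, with a median of 0.13. No mitochondrially encoded RNA had a probe.

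Grouping all annotated symbols by their leading letters gave 84 families with at least 15 tested probes. The share called, in either direction, ran from 10.3% to 50.0% with a median of 25%, next to 25.8% over all probes with a symbol. Family medians ran from -0.19 to 0.27, and 64 of 84 lay above 0, where the median of all probes with a symbol was 0.040. Probes in the runs are included here. The lowest median was that of the Wnt ligands, where 4 of 16 probes were lower and 1 higher. It was followed by the Arhgef exchange factors, with 5 of 22 lower and 1 higher.

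Probes annotated to the same gene often disagreed. Of 2630 genes with several tested probes, 253 had at least 2 called probes. Of these, 66 had called probes that were only higher, 67 only lower, and 120 had called probes in both directions. Over 4797 pairs of probes of 1 gene, the log ratios correlated at a Spearman's rho of 0.01, and 50.4% of the pairs had the same sign. Each gene name in this text refers to a single probe unless several are given. The names come from the platform annotation, and the match of each probe ID to its gene could not be checked directly here. Probes that share a symbol gave the names no support, since they correlated less than neighbouring IDs did (rho of 0.17). Where the match is wrong, the named genes and the list counts change with it.

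Some genes did have several probes called in 1 direction, and those described next were picked for it. Among genes with at least 2 called probes, 52.6% had called probes in 1 direction only. Calls split almost evenly, 13% higher and 12.7% lower among probes with a symbol, so unrelated probes would agree about as often. The agreement is therefore no support for a change of the gene. Thyn1 probes 19193 and 19194 were lower at -0.68 ± 0.06 and -0.99 ± 0.26 (SD, n = 4), while its probe 16977 read 0.04. Ncam1, a neural adhesion molecule, was lower on probes 16615 (-0.81) and 20638 (-0.87), and probe 9287 read 0.26. Ccr2, the receptor that brings monocytes out of the marrow, read -0.85 on both of its probes, both inside the runs. Lox, the enzyme that crosslinks collagen, was lower on probe 1634 at -0.68 ± 0.11 and on probe 20341 at -0.82 ± 0.15 (SD, n = 4), with probe 18465 at 0.09. The second of the low probes of Lox and of Ncam1 lies in a run, where 58.5% of the probes with a symbol were lower. Acbd3, a Golgi scaffold, was lower on both of its probes, and so was Smad5, a mediator of BMP signals, whose probe 20345 lies in a run. The second probe of each was not called without mouse 4 (Acbd3 20053 adjusted p = 0.0541, Smad5 20345 adjusted p = 0.0618), nor was that of Smad5 without mouse 2 (adjusted p = 0.0518).

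On the higher side, Tinf2, a subunit of the telomere cap, was called on probes 4794 and 6587 at 0.54 and 0.56, with probe 6888 at 0.21. Pcmt1, an enzyme that repairs aged aspartyl residues, was called on 2 of its 4 probes, at 0.55 and 0.57, and the others read -0.16 and 0.12. Gsto1 was called on probe 6506 as well, at 0.50 ± 0.19 (SD, n = 4), well below probe 19499, and was not called without mouse 2 (adjusted p = 0.0526). Its probe 13934 read 0.17 and was not called. Ypel2, Nudt16 and Dpy30 each had 2 called higher probes, with means from 0.46 to 0.67, and the Ypel2 probe 2071 read 0.054 and was not called. At least 1 of the probes of each lost its call without a mouse: Ypel2 6994 without mouse 3 (adjusted p = 0.0555), Nudt16 6514 without mouse 2 (adjusted p = 0.0801) and Dpy30 6942 without mouse 4 (adjusted p = 0.109), among others.

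Opposite calls were as large. Msra, a methionine sulfoxide reductase, read -0.56, -1.0045, -0.90 and -0.86 on probe 16006 and 0.82, 0.50, 0.53 and 0.64 on probe 17092. The ranges lay on opposite sides of 0 in every mouse. Rufy3 was at 0.59 ± 0.11 and -0.72 ± 0.16, and Pdlim2 at 0.56 ± 0.17 and -0.57 ± 0.11 (SD, n = 4). Cald1, the actin-binding caldesmon, had probes at 0.58, 0.47, -0.08 and -0.72. The low probes of Pdlim2 and Cald1 lay in the runs, and with the running median removed they read -0.09 and -0.10 and were not called. The low probes of Msra and Rufy3 lay outside.

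**Figure D5:**
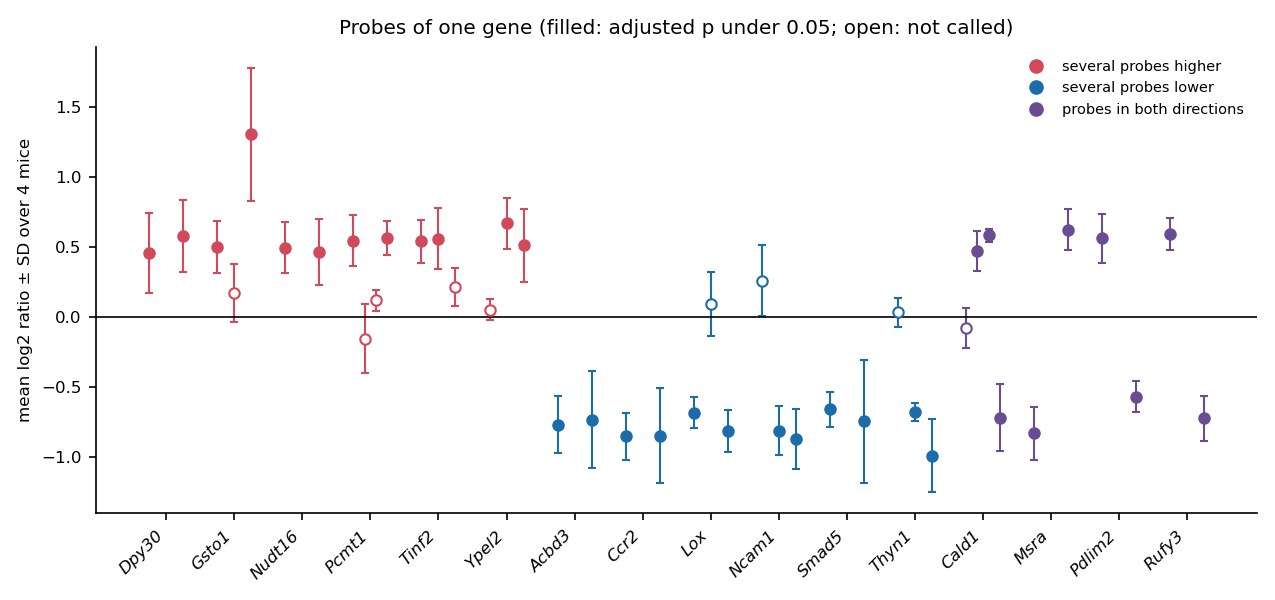
Points give the mean log2 ratio of each probe ± SD over 4 mice for 16 genes, with filled points for called probes and open points for probes not called. Red genes have several higher probes, blue genes several lower ones, and the purple genes at the right have called probes on both sides of 0, such as Msra at 0.62 and -0.83.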

How the data were processed

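Total RNA of each mutant spleen and of the pool was labelled indirectly with Cy3 and Cy5, per the labels' protocols. The deposited values are log ratios per probe, read here as log2; neither scanner, background correction, normalization nor genome build is given in the sources used here. Values above 10 in size, between 56 and 130 an array, were treated as placeholders and set to missing. Their sign followed the dye of the mutant, so all arrays were read as running in 1 direction. The 2 arrays of a mouse were averaged, probes with at least 3 mice were tested against 0 in limma 3.58.1 (R 4.3.3; lmFit and eBayes, Benjamini-Hochberg over all probes, threshold 0.05), and the code was tested on simulated data. The labels call the mice separate animals. The pool's own spread is left out.

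Gene symbols came from the platform annotation. Named were the Emp and Pmp22 probes; the 12 largest called probes per direction with 1 sign in every mouse and array; for genes with several called probes, 6 per direction and 4 with opposite calls; up to 2 probes per direction, by smallest p, in 26 of 80 gene lists; and 4 probes without a symbol. The members and lists were chosen with earlier results of these data known. Alternatives covered single mice left out, the dye direction, centring, the pool's variance, a 1.2-fold test, a fit with thymus, placeholders, the probe filter, single arrays, a running median over 25 IDs on each side, single dyes, robust variance, gene means and the alphabetical IDs left out.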

Additional observations from a re-analysis of the deposited data

Results flagged for a closer look

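Among 152 named probes measured in 4 mice, 7 had a mouse that stood apart from the others by Dixon's test, in which chance marks about 1 in 20. Cst7 4255 read 1.03 in mouse 2 and 0.54 to 0.62 in the others. Mouse 3 stood apart on 4 probes. It read 2.09 at Vopp1 4816 against 0.54 to 0.69, 0.33 at Irf5 7848 against 0.42 to 0.43, -0.25 at Emp2 18713 against 0.11 to 0.17, and -1.40 at Smad5 20345 against -0.55 to -0.47. At Vopp1 and Smad5 this came from 1 of its 2 arrays. With the mutant in Cy5 and in Cy3 mouse 3 read 3.81 and 0.37 at Vopp1, and -0.62 and -2.18 at Smad5. Mouse 1 stood apart on 2 probes, at -0.80 on Cebpe 5137 against -0.50 to -0.49, and at -0.29 on Relb 14472 against -0.56 to -0.52.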

How the results depend on the processing

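No paired analysis was possible because 1 group of mice was set against a single pool, with no second spleen group sharing its replicate numbers. The thymus arrays do carry the same mouse and replicate numbers, but spleen paired with thymus is another comparison and was not tested. Leaving out each mouse gave between 2351 and 4867 called probes, 935 to 2585 higher and 1409 to 2282 lower. With the arrays that had the mutant in Cy3 turned, 1 probe was called, 0 higher and 1 lower, and 0 of the 141 called probes named here kept their call. A pool variance left 1689 called (584 higher, 1105 lower), and a test against a 1.2-fold change left 887 (194 higher, 693 lower), with 77 of the named probes. The Cy3 arrays alone gave 3074 (1484 higher, 1590 lower), and gene means in place of probes, with fewer units tested, gave 2235 (1142 higher, 1093 lower). Higher calls numbered 4395 in a fit shared with thymus, 1547 with a running median along the IDs removed and 1636 on the Cy5 arrays alone. The fit with thymus left out thymus mouse 2 and took spleen and thymus as independent samples, although they carry the same mouse numbers. Of all calls, 52.9% were higher, against 41.4% with the running median removed, 46.7% with array medians set to 0 and 56.1% without the alphabetical IDs, an alternative chosen after seeing the data. Keeping the placeholders, requiring 4 mice, using single arrays and a robust variance gave totals between 4659 and 5272. The causes were not tested.

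With the Cy3 arrays turned, the following named probes changed sign, each with its log2 ratio there: Irf2 26 0.082, Klk1 581 -0.16, Ypel2 2071 -0.17, Pmp22 2384 0.096, Wnt6 2466 -0.10, Cald1 2601 0.042, Nudt16 3389 -0.030, Cxcr5 3928 0.021, Arpc5l 4040 -0.19, Blvrb 4484 -0.051, Csk 4752 0.080, Mpo 4927 0.025, probe 4961 0.058, Gata3 5655 -0.014, Mrpl49 5876 -0.18, C1qc 5895 -0.051, Atp2a2 6142 0.010, Lat 6288 -0.071, Rad9b 7163 -0.021, H2ax 7218 -0.042, Jag2 7594 -0.039, H3c1 9067 -0.010, Nagk 9676 -0.20, Zfpm1 10399 -0.040, Kif2c 14563 -0.012, Pcmt1 14679 -0.12, Ccl5 15468 -0.056, Sptb 15496 0.081, Dynll2 16272 -0.11, Tspan4 18334 -0.044, Cldn19 19104 0.058, Faf2 19164 -0.15, Hba-x 19189 -0.11, Thyn1 19194 0.028, Gsto1 19499 -0.28, Acbd3 20053 0.10, Smad5 20345 0.21, Tnfaip3 20384 -0.057, Mtfr1 20400 0.026, Apc 20452 0.49, Bcl2l12 20474 0.10, Cald1 20483 0.14, Ror1 20700 0.082. If the arrays already run in 1 direction, as read here, a turned value only compares the dyes and does not estimate the mutant effect. A changed sign then means that the probe read farther from 0 with the mutant in Cy3. Arpc5l is an example, at a mean of 1.51 in Cy3 and 1.14 in Cy5. Emp2 18713 read between -0.0052 (without mouse 4) and 0.13 (without mouse 3) with a mouse left out. With the running median removed, Thyn1 16977 read -0.051 and Hmox2 20592 read 0.097. On the Cy5 arrays alone Ypel2 2071 read -0.11, and on the Cy3 arrays alone Emp3 4348 read -0.064, Gsto1 13934 -0.069 and Lox 18465 -0.19. The arrays give no counts, so precision is limited by the 4 mice and the single pool.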
